A study of Mus musculus with 32 samples.

Results

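The intermediate filament genes Gfap, Vim, Nes, Nefl, Nefm, Nefh, Ina, Prph and Des were followed over the cells of the mouse median eminence. These 9 genes were chosen by symbol, each matched 1 row of the count table, and they stood among 27998 genes in all. The median eminence, at the floor of the hypothalamus, was taken from male C57B/L6 mice aged 40 to 47 days. The tissue of 5 fasted mice (no food overnight, 16 h) was pooled, and so was that of 5 refed mice, which were given food for 1 h at the end of the fast. Live single cells were sorted, and each condition was split over 2 droplet libraries. The cell barcodes carried a number from 1 to 4 that no source used here ties to a library, so fasted and refed cells were not compared, all 5982 cells were treated as 1 pooled sample, and no test between samples could be made.

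Intermediate filaments are rope-like polymers of the cytoskeleton, and each cell lineage builds them from its own set of proteins. GFAP, vimentin and nestin form the filaments of astrocytes, tanycytes and neural progenitors, where GFAP is the standard astrocyte marker and nestin the standard progenitor marker. Neurofilament light, medium and heavy chains, α-internexin and peripherin form the filaments of axons, and desmin forms those of muscle cells. Tanycytes are radial glia-like cells that line the third ventricle and send long processes through the median eminence, and they are known for keeping vimentin and nestin in the adult brain.

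Levels are given as CPM, the UMIs (unique molecular identifiers, that is, counted transcripts) of a gene per 1000000 UMIs of a cell class, with 95% exact Poisson intervals. Shares are the percent of cells with at least 1 UMI, with exact Clopper-Pearson 95% intervals. All intervals cover counting error and leave out the spread between mice. Cells held a median of 3837 UMIs (range 1533 to 25054), and the 4 barcode numbers held 1359 to 1642 cells each. Of the barcode sequences, 21 occurred in 2 barcode numbers. Cells were clustered with the 9 genes left out, and clusters took a name with "-like" from marker lists that hold none of the 9. Tanycyte-like cells numbered 1637, astrocyte-like cells 1423, neuron-like cells 508 and vascular cells 427 (268 vascular and leptomeningeal cell-like or VLMC-like, 75 mural-like, 84 endothelial-like).

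Clusters whose leading gene over all other cells was Gfap were kept as classes of their own. They held 362 of the tanycyte-like cells (led by Gfap, Tgfb2, Apobec2, Rspo3 and Cd59a) and 71 of the astrocyte-like cells. The markers of these cells were mixed. Rax, a homeobox factor of tanycytes, stood at 283 CPM in the Gfap-led tanycyte-like cells, against 742 CPM in the other tanycyte-like cells and 32.3 CPM in the other astrocyte-like cells. Agt, which encodes angiotensinogen and marks astrocytes here, stood at 249, 58.9 and 4629 CPM in the same classes. Not all markers moved this way between the Gfap-led and the other tanycyte-like cells. Col23a1, Crym and Dio2 were lower, but Lhx2 stood at 140 against 141 CPM and Gpr50 at 245 against 162 CPM. Slc1a2, Slc4a4 and Aqp4 were higher. Htra1 (54.6 against 42.05 CPM) and Slc7a10 (31.6 against 29.4 CPM) differed less, and Cldn10 was lower (48.6 against 446 CPM). The marker list that scored next best for the Gfap-led tanycyte-like cells was that of ependymocytes (0.231, against 0.648 for tanycytes). All its markers were higher there than in the other tanycyte-like cells, among them Rarres2 (1298 against 319 CPM) and Tmem212 (234 against 17.05 CPM). They were higher still in ependymocyte-like cells, with Rarres2 at 3899 CPM and Tmem212 at 2679 CPM. In the Gfap-led astrocyte-like cells Rax was at 316 CPM and Agt at 1925 CPM. The Gfap-led astrocyte-like cells formed a cluster led by Gfap only at the reported clustering setting. With the 9 genes kept in the clustering all 71 took the plain astrocyte name, 56 of them in 1 cluster, and at a lower or a higher resolution 70 did, all 70 in 1 cluster. The Gfap-led tanycyte-like cells were more stable, with 358, 355 and 232 of 362 keeping that class under the same 3 settings.

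Positions are given on the GRCm38 build. The glial genes are Gfap (chr11:102887336-102900912, minus strand), Vim (chr2:13573927-13582826, plus strand) and Nes (chr3:87971078-87980451, plus strand). Nefl (chr14:68083863-68089095, plus strand) lies inside the annotated span of Nefm (chr14:68082590-68124846, minus strand). Nefh is at chr11:4938754-4948064 on the minus strand, Ina at chr19:47014698-47025327 and Prph at chr15:99055174-99058978, both on the plus strand. Des is at chr1:75360329-75368579 on the plus strand. Gfap, Ina and Des also overlap a gene on the other strand (Gm26668, Nt5c2 and Gm15179). Since the use of strand in the counting is not given in the sources used here, reads shared within these pairs, Nefl and Nefm included, are uncertain.

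RefSeq promoter entries on GRCm38.p6 matched 6 of the 9 genes, all except Nefl, Nefm and Nefh. The 250 bases before the start are shown for Nes, Gfap, Des and Ina, known as filament genes of progenitors, astrocytes, muscle and neurons. For Vim, whose window is annotated as 5′ UTR in another transcript, 30 bases are shown. Capitals mark matches on either strand to the TATA box letters TATAAA, the CCAAT box, the GC box letters GGGCGG (shown as the reverse complement where the match is on the other strand) and the E-box letters CAGCTG. The matches did not overlap each other.
Nes, chr3:87970843-87971092, plus strand: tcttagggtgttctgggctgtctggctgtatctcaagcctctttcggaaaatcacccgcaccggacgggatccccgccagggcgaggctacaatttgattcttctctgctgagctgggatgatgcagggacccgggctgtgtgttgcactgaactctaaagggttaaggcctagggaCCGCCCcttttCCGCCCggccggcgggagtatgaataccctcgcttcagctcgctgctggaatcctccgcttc
Gfap, chr11:102897201-102897450, minus strand: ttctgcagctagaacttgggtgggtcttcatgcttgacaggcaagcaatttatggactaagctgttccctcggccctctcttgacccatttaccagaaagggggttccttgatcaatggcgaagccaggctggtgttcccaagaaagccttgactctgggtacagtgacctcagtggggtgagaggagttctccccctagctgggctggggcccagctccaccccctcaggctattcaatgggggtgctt
Des, chr1:75360042-75360291, plus strand: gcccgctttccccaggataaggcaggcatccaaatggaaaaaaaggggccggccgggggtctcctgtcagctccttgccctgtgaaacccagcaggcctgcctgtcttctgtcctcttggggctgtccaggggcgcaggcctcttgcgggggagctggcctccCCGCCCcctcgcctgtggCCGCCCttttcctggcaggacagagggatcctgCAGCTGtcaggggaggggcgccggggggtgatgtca
Ina, chr19:47014431-47014680, plus strand: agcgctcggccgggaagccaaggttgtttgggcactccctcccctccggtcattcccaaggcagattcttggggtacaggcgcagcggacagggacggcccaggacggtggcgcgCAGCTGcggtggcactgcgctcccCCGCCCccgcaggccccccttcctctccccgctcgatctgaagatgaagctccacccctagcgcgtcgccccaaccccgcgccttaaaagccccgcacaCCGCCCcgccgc
Vim, chr2:13574267-13574296, plus strand: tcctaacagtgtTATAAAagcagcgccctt
The Gfap window held none of the 4 motifs. The Nes window held 2 GGGCGG matches. The Des and Ina windows held 2 GGGCGG matches and 1 CAGCTG match each, the Des one beginning at base -36. The Vim match to TATAAA began at base -32, and the full Vim window, shown only in part, also held 2 CCAAT matches. The Prph window, which is not shown, held 1 TATAAA match beginning at base -31 and 1 GGGCGG match beginning at base -24. Over 32851 windows of the same length, 12.4% held TATAAA, 33.8% CCAAT, 32.7% GGGCGG and 13% CAGCTG. These matches describe letters in the window and were not set against the levels.

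Each gene had most of its UMIs in few of the 15 named classes. Among 13953 genes with at least 50 UMIs, 577 (4.14%) lay at least 1 log2 unit higher in all tanycyte-like cells than in all other cells, with 10 CPM added to both sides, and Gfap, Vim and Nes were among them. The same 3 genes were among the 462 (3.31%) that lay this much higher in the Gfap-led tanycyte-like cells, the class that was set apart by Gfap itself. Of the 9 genes, Gfap alone was among the 736 (5.27%) higher in all astrocyte-like cells. Nefl, Nefm, Nefh and Ina were among the 1323 (9.48%) higher in neuron-like cells, and Vim and Des were among the 1024 (7.34%) higher in vascular cells. Prph, with 35 UMIs over all cells, was below the 50 UMIs that this count asked for. The 9 genes were chosen with such patterns known, so these counts describe them and carry no test.

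**Figure D1:**
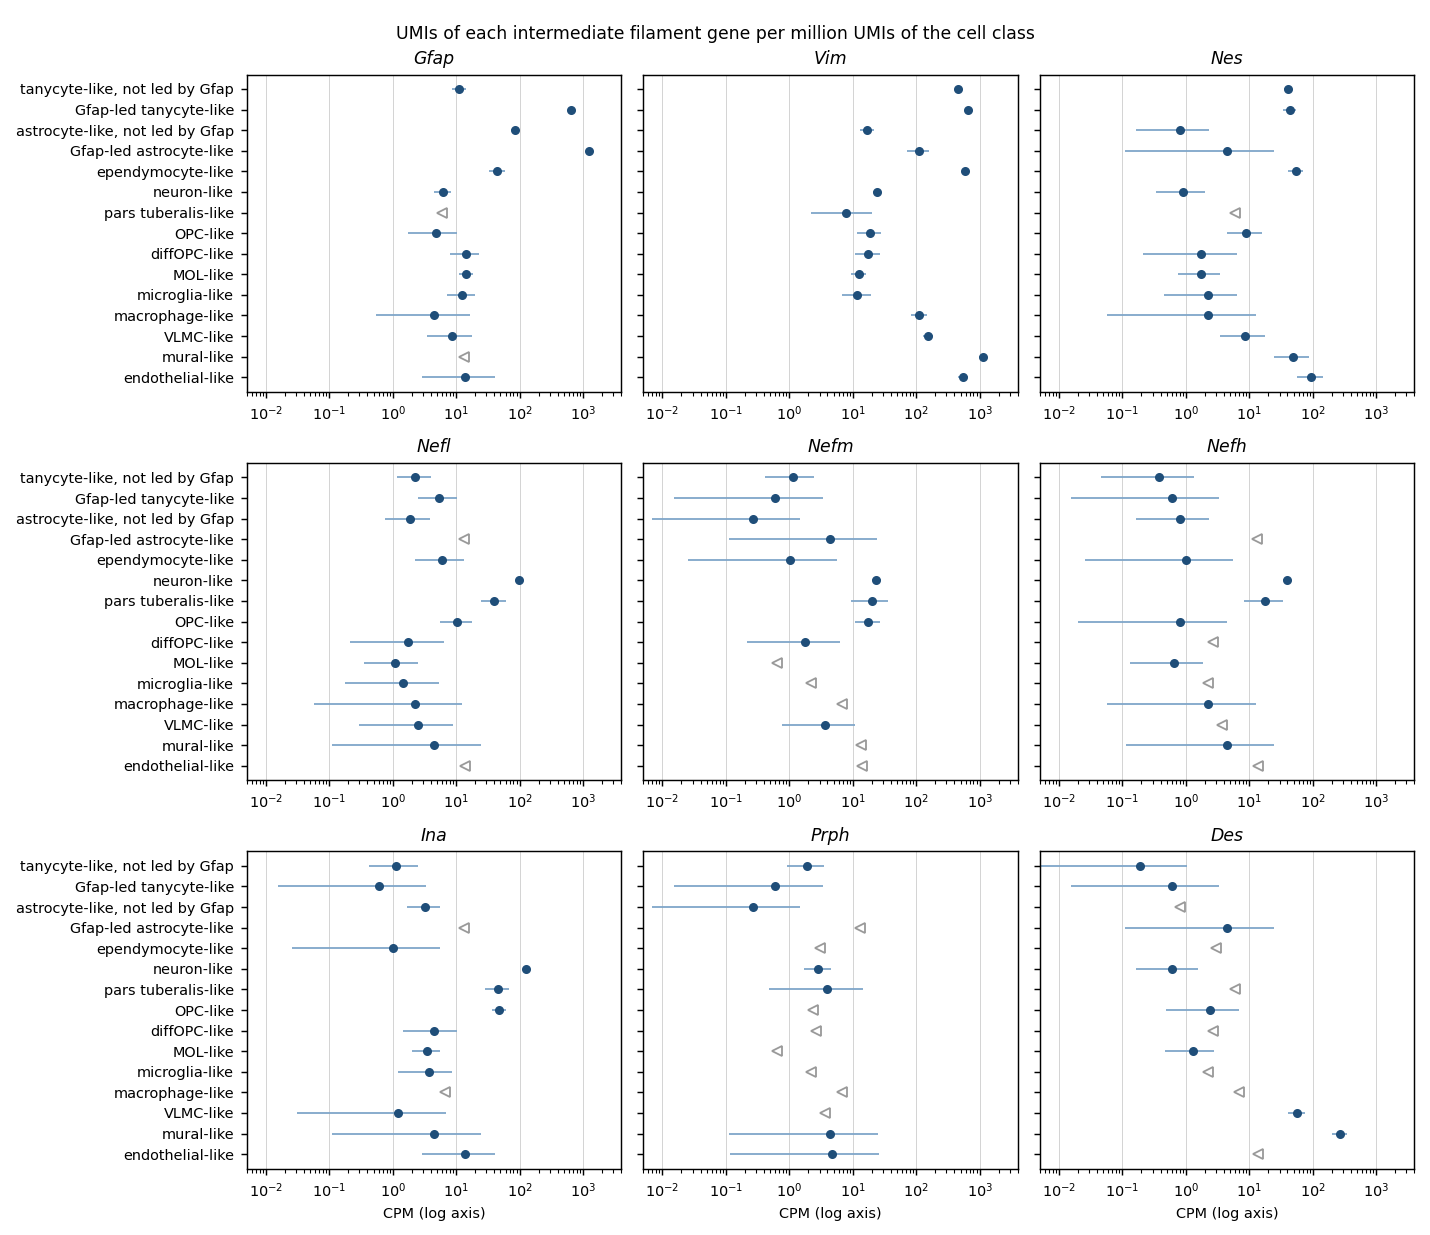
Level of each of the 9 genes (CPM, log axis) in 15 cell classes, with points for the level, bars for the exact Poisson 95% interval and open triangles for the level that 3 UMIs would give where none was counted. Gfap peaks at 1258 CPM in Gfap-led astrocyte-like cells, Vim at 1129 CPM in mural-like cells, Nes at 93.0 CPM in endothelial-like cells, Ina at 127 CPM in neuron-like cells and Des at 267 CPM in mural-like cells.

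Gfap, the filament gene of mature astrocytes, had 1942 UMIs over all cells, and most of them were in the Gfap-led tanycyte-like cells, whose markers were mixed. The 362 Gfap-led tanycyte-like cells held 1082 of these UMIs, or 55.7% (53.5 to 57.9), with 5.63% of all UMIs in the data. The 1352 astrocyte-like cells not led by Gfap held 310, the 71 Gfap-led astrocyte-like cells 287 and the other 1275 tanycyte-like cells 59. The level was 1258 CPM (1117 to 1412) in the Gfap-led astrocyte-like cells, 657 CPM (618 to 697) in the Gfap-led tanycyte-like cells, 83.5 CPM (74.5 to 93.4) in the other astrocyte-like cells and 44.6 CPM (32.4 to 59.8) in the 200 ependymocyte-like cells, the ciliated lining of the ventricle. The intervals of these 4 classes did not overlap each other. The lowest of them overlapped that of the endothelial-like cells, at 13.95 CPM (2.88 to 40.8, 3 UMIs), and no interval of the other classes. Below them came the mature oligodendrocyte-like (MOL-like) cells at 14.5 CPM, with each further class overlapping the next down to the mural-like and pars tuberalis-like cells, where no Gfap UMI was counted. The other tanycyte-like cells, at 11.2 CPM (8.51 to 14.4), were among these low classes. Because 2 of these classes were set apart by Gfap, their levels are a description.

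Within each barcode number the Gfap-led tanycyte-like cells were far above the other tanycyte-like cells. The Gfap-led cells stood at 423, 755, 600.0 and 917 CPM in barcode numbers 1 to 4, and the other tanycyte-like cells at 1.96, 7.64, 15.8 and 21.6 CPM. In the astrocyte-like cells not led by Gfap the values were 83.9, 95.2, 68.4 and 81.5 CPM, a narrower range, and in the Gfap-led astrocyte-like cells they were 887, 958, 1421 and 1418 CPM. The Gfap-led tanycyte-like cells were 58.8-fold (45.2 to 77.7) above the other tanycyte-like cells and 7.86-fold (6.92 to 8.95) above the other astrocyte-like cells. The Gfap-led classes were set apart by Gfap, so these ratios and the levels by barcode number are a description and no separate support. Taken as whole classes, tanycyte-like cells (165 CPM) and astrocyte-like cells (152 CPM) did not differ beyond counting error, with a ratio of 1.09 (0.984 to 1.20). Its log2 value of 0.12 went to 0.30 without barcode number 3 and to -0.03 without barcode number 4, so its direction rests on which barcode numbers are counted.

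Gfap UMIs were concentrated in few cells. Of the 362 Gfap-led tanycyte-like cells, 211 had no Gfap UMI, 40 had 1, 69 had 2 to 9 and 42 had 10 or more, with up to 38 in a cell. Those 42 cells held 66.9% of the Gfap UMIs of the class. In the Gfap-led astrocyte-like cells, 8 of 71 cells had 10 or more, up to 64, and held 82.2% of its Gfap UMIs. The astrocyte-like cells not led by Gfap showed another form of spread, with 205 of 1352 cells positive, none with 10 or more and a maximum of 7. The share of positive cells was 41.7% (36.6 to 46.98) in the Gfap-led tanycyte-like cells at a median depth of 4315 UMIs, and 34.5% after each cell was thinned to 2000 UMIs. It was 15.2% (13.3 to 17.2) in the other astrocyte-like cells at 2657 UMIs, or 12.3% thinned. Microglia-like cells, which should lack Gfap, gave 3.95% at 3093 UMIs, or 2.20% thinned. The other tanycyte-like cells, at 3.84% and 4005 UMIs, or 1.92% thinned, were at that level, which is read as background. Neuron-like cells, whose 7.87% at 13412 UMIs became 0.792% on thinning, were below it once thinned. In CPM the other tanycyte-like cells, at 11.2 (8.51 to 14.4), lay above neuron-like cells, at 6.20 (4.45 to 8.42). The microglia-like level rests in part on the microglia-like cluster of 48 cells led by Ccl4, at 16.7%. The other 357 microglia-like cells gave 2.24%, or 0.946% thinned, and 6.77 CPM (2.92 to 13.3), whose interval overlapped that of the other tanycyte-like cells.

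**Figure D2:**
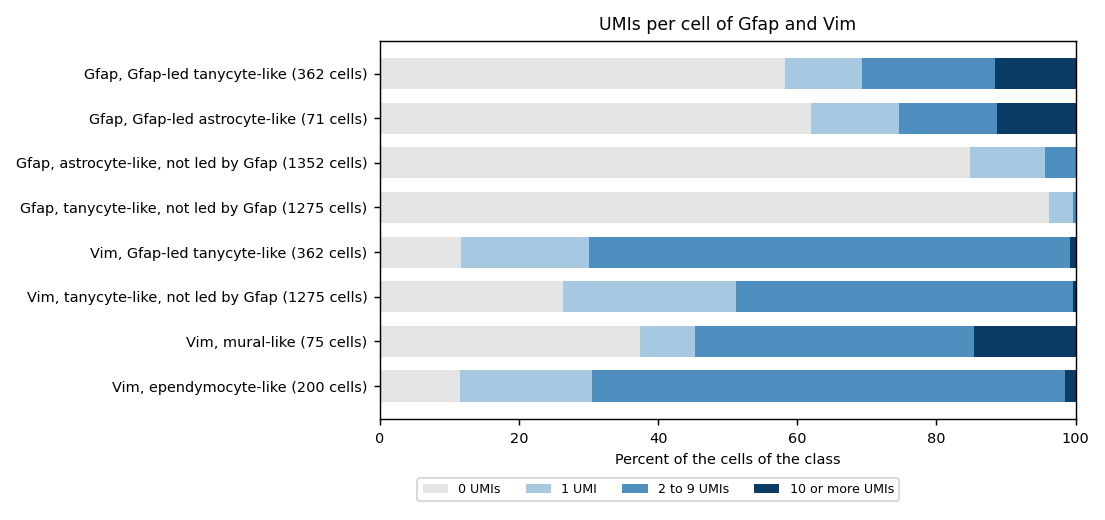
Percent of the cells of a class with 0, 1, 2 to 9 and 10 or more UMIs of Gfap (upper bars) or Vim (lower bars). No Gfap UMI was counted in 211 of 362 Gfap-led tanycyte-like cells and 10 or more in 42, while Vim is found in 320 of these cells and reaches 10 or more in 3.

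Along this range of Gfap counts the markers of the Gfap-led tanycyte-like cells shifted. Rax was at 404 CPM (365 to 447) in the 211 cells with no Gfap UMI, 126 CPM (96.4 to 162) in the 109 cells with 1 to 9 and 87.2 CPM (51.7 to 138) in the 42 cells with 10 or more. Agt was at 135, 364 and 509 CPM in the same ranges. Aqp4, the water channel of astrocyte endfeet, was at 106, 202 and 354 CPM, and S100b, a calcium-binding protein of astrocytes and ependymal cells, at 240, 601 and 829 CPM. C4b, a complement gene of reactive glia, was at 29.3, 90.9 and 175 CPM (28, 44 and 36 UMIs). For each of these 5 genes the interval at 0 Gfap UMIs lay clear of that at 10 or more. The other markers did not all follow. Of the 7 astrocyte markers 3 (Agt, Aqp4 and Slc4a4) were higher at 10 or more Gfap UMIs, and 4 (Slc1a2, Htra1, Cldn10 and Slc7a10) had overlapping intervals. Slc1a2, the glutamate transporter of astrocytes, was at 572.5, 636 and 475 CPM. Of 6 tanycyte markers 4 (Rax, Lhx2, Col23a1 and Crym) were lower at 10 or more, Crym from 686 to 43.6 CPM, and 2 (Gpr50 and Dio2) overlapped. Vim was at 561 CPM (515 to 611), 764 CPM (688 to 846) and 824 CPM (705 to 958), a smaller difference whose first and last intervals were also apart. Nes was at 40.8, 51.6 and 38.8 CPM with intervals that overlapped. The ranges are cuts through a count and not cell types, and the 40 cells with 1 Gfap UMI lie next to the lower cut. Median depth was 4425, 4088 and 4688.5 UMIs.

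**Figure D3:**
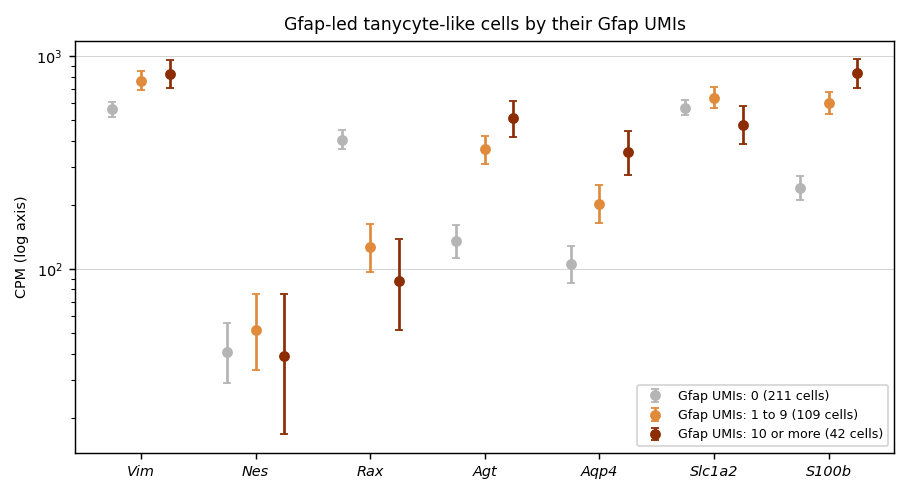
Level (CPM, log axis) of Vim, Nes and 5 marker genes in the 362 Gfap-led tanycyte-like cells, split by their number of Gfap UMIs, with exact Poisson 95% intervals. From 0 to 10 or more Gfap UMIs, Rax goes from 404 to 87.2 CPM and Agt from 135 to 509 CPM, while the intervals of Nes and of Slc1a2 overlap.

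The Gfap-led astrocyte-like cells were split in the same way into 44, 19 and 8 cells. Rax was at 435, 194 and 0 CPM there, and Agt at 1574, 2080 and 3293 CPM. Myoc, which encodes myocilin, was at 0 CPM in the 44 cells with no Gfap UMI, 290 CPM (18 UMIs) in the 19 cells with 1 to 9 and 779 CPM (22 UMIs) in the 8 cells with 10 or more. Vim went the same way, at 50.8, 113 and 389 CPM, on 7, 7 and 11 UMIs. The class thus held cells with Rax and no counted Gfap next to cells with Gfap and Myoc, and its Gfap level rests on 27 positive cells.

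Vim, the vimentin gene of mesenchymal cells, endothelium and immature glia, had 5020 UMIs, and 69.3% (68.0 to 70.6) of them were in tanycyte-like cells. Its level was highest in mural-like cells, the muscle cells and pericytes of vessels, at 1129 CPM (995 to 1277). Of the 254 Vim UMIs of this class, 252 were in the 47 cells with contractile genes described below (1486 CPM). The 28 cells with pericyte genes held 2 (36.2 CPM, 4.38 to 131). The Gfap-led tanycyte-like cells followed at 654 CPM (615 to 694), then ependymocyte-like cells at 587 CPM (540 to 636), endothelial-like cells at 554 CPM (459 to 662) and the other tanycyte-like cells at 455 CPM (437 to 474), with each of these overlapping the next above it, while the mural-like cells did not overlap any. VLMC-like cells (156 CPM), macrophage-like cells (113 CPM) and Gfap-led astrocyte-like cells (110 CPM) formed a middle level whose intervals overlapped. Neuron-like, oligodendrocyte lineage, microglia-like, pars tuberalis-like and the other astrocyte-like cells were at 24.2 CPM or lower.

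Taken as whole classes, tanycyte-like and astrocyte-like cells were separated by Vim and not by Gfap. Outside the Gfap-led cells, a split that Gfap itself made, Gfap was lower in tanycyte-like cells. It was at 11.2 CPM (8.51 to 14.4) there and at 83.5 CPM (74.5 to 93.4) in astrocyte-like cells. By barcode number Vim was at 501, 532, 497 and 481 CPM in all tanycyte-like cells. In all astrocyte-like cells Vim was at 21.8, 17.6, 20.2 and 29.1 CPM, so the values of the 2 classes were far from overlapping. The ratio was 22.7 (18.4 to 28.5), a log2 difference of 4.51. The Gfap-led tanycyte-like cells were 1.44-fold (1.34 to 1.54) above the other tanycyte-like cells. At least 1 Vim UMI was found in 76.9% (74.8 to 78.9) of tanycyte-like cells at a median depth of 4102 UMIs and in 5.13% (4.04 to 6.41) of astrocyte-like cells at 2665 UMIs. Microglia-like cells gave 3.70% at 3093 UMIs, and the astrocyte-like cells not led by Gfap, with 4.29% (3.27 to 5.51) at 2657 UMIs, could not be told from that level. Among the immune cells, macrophage-like cells were 9.59-fold (5.37 to 18.0) above microglia-like cells, which were at 11.8 CPM on 16 UMIs.

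The tanycyte-like clusters differed in Vim. The cluster led by Kctd14, S100a6 and Pdzph1 (556 cells) was at 538 CPM (506 to 571) and the cluster led by Scn7a, Col25a1 and Frzb (520 cells) at 455 CPM (429 to 482). The cluster led by Dio3 (199 cells) was at 233 CPM (199 to 270), below the other clusters with no overlap of intervals. Dio3 encodes the deiodinase that inactivates thyroid hormone. These clusters were formed without the 9 genes, so their Vim levels were not used to draw them.

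Nes, the nestin gene of neural progenitors and of new vessels, had 415 UMIs, 68.7% (64.0 to 73.1) of them in tanycyte-like cells. Its level was 93.0 CPM (56.8 to 144, 20 UMIs) in endothelial-like cells, 54.7 CPM (41.1 to 71.4) in ependymocyte-like cells, 48.9 CPM (24.4 to 87.5, 11 UMIs) in mural-like cells, 43.7 CPM (34.2 to 55.0) in Gfap-led tanycyte-like cells and 40.4 CPM (35.1 to 46.2) in the other tanycyte-like cells. Neighbours in this order overlapped, while the interval of the endothelial-like cells lay above those of both sets of tanycyte-like cells. The next classes, oligodendrocyte precursor cell-like (OPC-like) cells at 8.80 CPM and VLMC-like cells at 8.62 CPM, were well below them.

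By barcode number Nes was at 42.4, 38.3, 44.4 and 39.6 CPM in all tanycyte-like cells, whereas all astrocyte-like cells held 4 Nes UMIs in total. The ratio was 40.5 (15.7 to 150), a log2 difference of 5.34 with a wide interval because of those 4 UMIs. Within tanycyte-like clusters the Kctd14-led cluster was highest, at 62.1 CPM (51.8 to 74.0), with the Dio3-led cluster at 31.9 CPM (20.4 to 47.5) and the Scn7a-led cluster at 25.2 CPM (19.4 to 32.3). Unlike Vim, Nes did not set the Dio3-led cluster below the Scn7a-led cluster. The share of positive cells was 15.5% (13.7 to 17.3) in tanycyte-like cells at 4102 UMIs and 0.984% (0.320 to 2.28) in neuron-like cells at 13412 UMIs. After thinning, 79 of 934 tanycyte-like cells with Vim had Nes (8.46%, 6.75 to 10.4) and 43 of 675 with no Vim UMI had it (6.37%, 4.65 to 8.49), which is no difference beyond counting error. In the Gfap-led tanycyte-like cells, 93 of 124 thinned cells with Gfap had Vim (75.0%, 66.4 to 82.3), against 159 of 235 with no Gfap UMI (67.7%, 61.3 to 73.6), again with overlapping intervals.

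The 5 filament genes of neurons were concentrated in neuron-like cells. Of their 2228 UMIs together, 86.6% (85.1 to 88.0) were in neuron-like cells, which held 22.6% of all UMIs. The part was 89.1% for Nefl, the light chain on which neurofilaments are built, 76.7% for Nefm and 92.2% for Nefh, the medium and heavy chains with long side arms, 86.3% for Ina, which encodes α-internexin, and 54.3% for Prph.

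Nefl in neuron-like cells was at 72.3, 89.1, 108.5 and 111.5 CPM in barcode numbers 1 to 4 and at 98.9 CPM (91.5 to 107) over all. Pars tuberalis-like cells, named for endocrine cells next to the median eminence, were next at 39.7 CPM (24.3 to 61.4). OPC-like cells came then at 10.4 CPM (5.54 to 17.8), and neighbouring intervals did not overlap. The pars tuberalis-like class is mixed with neuron-like cells, as described below. Its 32 cells that kept the name at resolution 2 had 22.0 CPM (8.07 to 47.9), whose interval overlapped that of OPC-like cells. Neuron-like cells were 2.49-fold (1.60 to 4.11) above pars tuberalis-like cells, 9.52-fold (5.53 to 18.0) above OPC-like cells and 32.6-fold (21.2 to 53.1) above all tanycyte-like cells. Ina was steadier over barcode numbers, at 120.0, 126, 129 and 131 CPM, and at 127 CPM (119 to 136) over all neuron-like cells. Nefh was at 38.8, 35.3, 41.9 and 38.8 CPM, and at 39.2 CPM (34.6 to 44.3) over all. Nefm was at 16.4, 18.6, 24.8 and 29.2 CPM, and at 23.5 CPM (19.9 to 27.5) over all. Nefl and Nefm were thus lower in barcode numbers 1 and 2 than in 3 and 4, while Ina and Nefh spanned narrow ranges. The mix of neurons also moved with the barcode number. The Pomc-led group described below, the highest in Nefl, made up 7.55%, 6.98%, 12.7% and 14.6% of the neuron-like cells of numbers 1 to 4. Without that group Nefl was at 67.8, 77.8, 77.6 and 92.3 CPM, and the part of the mix in the difference was not tested.

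Shares of positive neuron-like cells were 77.6% (73.7 to 81.1) for Ina, 46.5% (42.1 to 50.9) for Nefl, 35.4% (31.3 to 39.8) for Nefh and 21.5% (18.0 to 25.3) for Nefm at a median of 13412 UMIs. Thinned to 2000 UMIs they were 23.6%, 17.2%, 7.92% and 3.96%, so a good part of the unthinned shares comes with the depth of neurons. In tanycyte-like cells, which should lack these genes, the shares were 0.428% for Ina, 1.28% for Nefl, 0.183% for Nefh and 0.428% for Nefm at 4102 UMIs. After thinning, Ina was found in 19 of 87 neuron-like cells with Nefl (21.8%) and 100 of 418 with no Nefl UMI (23.9%).

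Nefl differed more widely between kinds of neurons than Ina did. Neuron-like cells clustered alone, without the 9 genes, fell into 14 groups of 12 to 61 cells. Nefl was at 227 CPM (196 to 261) in the group led by Pomc, the precursor of melanocortins. That group was also led by Fezf1, Adcyap1, Avp and Slc17a6, so its name does not make it a set of Pomc neurons alone. Nefl was at 217 CPM (170 to 274) in the group led by Ghrh, the growth hormone-releasing hormone. It was at 197 CPM (160 to 239) in the Cartpt-led group and 157 CPM (121 to 201) in the Tac1-led group. The Tac2-, Sst-, Crabp1-, Trh-, Slc18a2- and Arpp21-led groups lay from 101 down to 53.1 CPM. In the group led by Npy and Agrp, the feeding-promoting arcuate neurons, it was at 14.99 CPM (8.57 to 24.3, 16 UMIs in 61 cells). The Cck-led group (35 cells) and the Vip-led group (54 cells) held 1 Nefl UMI each, and the Ppp1r17-led group (22 cells) none, where 3 UMIs would give 16.2 CPM. The intervals of these 4 groups lay below those of the 4 highest groups.

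Ina ranged from 73.6 CPM (36.8 to 132) in the Slc18a2-led group to 205 CPM (163 to 254) in the Vip-led group, a range of 2.78-fold. The interval of the Vip-led group lay above those of the Slc18a2-led, Trh-led (55.8 to 118) and Npy- and Agrp-led groups, among others. The Npy- and Agrp-led group was at 127 CPM (106 to 150) and the Pomc-led group at 135.5 CPM (112 to 162), so these groups differed in Nefl and not, beyond counting error, in Ina. Put together, the 4 groups under 20 CPM of Nefl (172 cells) had 9.58 CPM of Nefl (5.68 to 15.1) and 141 CPM of Ina (125 to 159), and the other 10 groups (336 cells) had 134 CPM of Nefl and 122 CPM of Ina (112 to 132). That cut was made on Nefl after its values were seen, so the Nefl levels of the 2 sets are a description. Nefm was at 9.58 CPM (5.68 to 15.1) and 28.96 CPM (24.3 to 34.2) in the same sets, and Nefh at 30.3 CPM (23.0 to 39.3) and 42.7 CPM (37.0 to 49.0). The median depth of the low groups was 18648 UMIs in the Npy-led group, among the deepest, and 6409 to 8347 UMIs in the other 3.

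**Figure D4:**
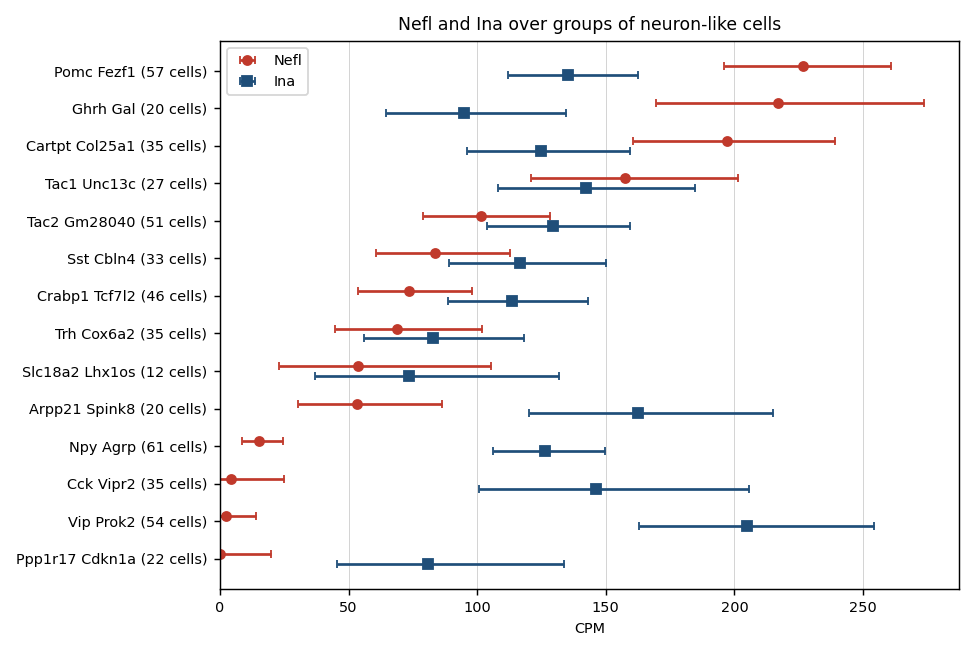
Nefl (circles) and Ina (squares) levels in CPM over 14 groups of neuron-like cells named by their leading genes, with exact Poisson 95% intervals. Nefl runs from 0 to 227 CPM while Ina stays between 73.6 and 205 CPM.

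Split by transmitter genes, the 67 neuron-like cells with at least 2 UMIs of Slc17a6, the vesicular glutamate transporter, and fewer of the GABA genes had 172 CPM of Nefl (146 to 201). The 379 cells with the reverse, at least 2 UMIs of Slc32a1, Gad1 and Gad2 together, had 80.5 CPM (72.8 to 88.8). Ina was at 135 CPM (112 to 161) and 128.5 CPM (119 to 139) in the same sets. Nefl was therefore higher in the glutamate-type cells as a whole, and Ina was not beyond counting error. The Nefl difference rests on the Pomc-led group, which gave 25 of the 67 glutamate-type cells: without it the level was 88.9 CPM (65.1 to 119) in the glutamate-type and 79.5 CPM (71.7 to 87.8) in the GABA-type cells, with overlapping intervals. The neuron groups rich in Slc17a6 ranged from none in the Ppp1r17-led group through 101 CPM in the Tac2-led group to the Pomc-led level. Nefh was at 50.2 CPM (36.6 to 67.2) in the glutamate-type and 34.4 CPM (29.4 to 39.97) in the GABA-type cells, with intervals that overlapped. Outside these sets, 35 cells with at least 2 UMIs of both types had 151 CPM of Nefl (120 to 187.5), above the interval of the GABA-type cells. The 27 cells with neither had 87.8 CPM of Nefl (53.65 to 136).

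Outside neurons, OPC-like cells had higher levels of Ina and Nefm than the next stages of the lineage. Ina was at 48.0 CPM (36.6 to 61.8) in the 307 OPC-like cells, with 45.9, 31.9, 67.8 and 52.9 CPM by barcode number, and at 4.40 CPM (1.43 to 10.3) in the 129 differentiating OPC-like (diffOPC-like) cells and 3.47 CPM in MOL-like cells. OPC-like cells were 10.9-fold (4.42 to 34.8) above diffOPC-like cells, although the diffOPC-like cells were deeper, with a median of 8604 against 4025 UMIs. At least 1 Ina UMI was found in 18.2% (14.1 to 23.0) of OPC-like cells and in 3.88% (1.27 to 8.81) of diffOPC-like cells, or 8.82% and 1.55% thinned. Nefm was at 17.6 CPM (11.03 to 26.6, 22 UMIs) in OPC-like cells and 1.76 CPM (0.213 to 6.36, 2 UMIs) in diffOPC-like cells, with a ratio of neuron-like to OPC-like cells of 1.33 (0.850 to 2.19), so no difference from neurons was detectable at this depth. Nefh had 1 UMI in OPC-like cells.

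The pars tuberalis-like cells were mixed, which bears on their Nefl. At a clustering resolution of 2, 56 of the 88 cells took the neuron name. They held 60.7 CPM of Nefl (33.2 to 102, 14 UMIs) with 5722 CPM of the neuronal RNA Snhg11, and Cga, the glycoprotein hormone subunit, was found in 14.3% of them. The 32 cells that stayed pars tuberalis-like had 26535 CPM of Cga, found in each of them, and 22.0 CPM of Nefl (8.07 to 47.9, 6 UMIs).

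Prph, the peripherin gene of peripheral and some central neurons, was sparse, with 35 UMIs in 27 cells. Neuron-like cells held 19 of them (2.88 CPM, 1.73 to 4.49), 11 in the 46 cells of the Crabp1-led group, where the level was 17.6 CPM (8.77 to 31.4). Tanycyte-like cells not led by Gfap held 10 (1.89 CPM, 0.908 to 3.48), 9 of them in the Kctd14-led cluster. The intervals of these 2 classes overlapped, and the share of positive cells was 2.17% and 0.784%.

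Des, the desmin gene of muscle, was found mostly in mural-like and VLMC-like cells, at lower levels than Vim in both. Of its 122 UMIs, mural-like cells held 60 and VLMC-like cells 46, together 86.9% (79.6 to 92.3) with 3.54% of all UMIs. By barcode number mural-like cells stood at 263, 49.2, 287 and 375 CPM and VLMC-like cells at 97.1, 44.2, 35.7 and 53.0 CPM, so the mural-like level in barcode number 2 was within the range of VLMC-like cells. Over all, mural-like cells were at 267 CPM (204 to 343) and VLMC-like cells at 56.6 CPM (41.5 to 75.5), a ratio of 4.71 (3.16 to 7.07). Endothelial-like cells held none in 84 cells, where 3 UMIs would give 13.95 CPM. Positive cells made up 41.3% (30.1 to 53.3) of mural-like cells at a median depth of 2946 UMIs and 12.3% (8.63 to 16.9) of VLMC-like cells at 2887.5 UMIs, against 0.450% of MOL-like cells at 6150 UMIs.

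The mural-like cells held 2 kinds of cells with different filament genes. At a resolution of 2 they parted into 47 cells led by Tagln, Pln and Acta2, contractile genes of smooth muscle, and 28 cells led by Atp13a5 and Kcnj8, genes of pericytes. The first had 1486 CPM of Vim (1308 to 1681), 330 CPM of Des (249 to 429) and 47.2 CPM of Nes. The second had 36.2 CPM of Vim (4.38 to 131, 2 UMIs), 72.3 CPM of Des (19.7 to 185, 4 UMIs) and 54.2 CPM of Nes (3 UMIs). The intervals of Vim and Des were apart, with the contractile-gene cells higher, and those of Nes overlapped. The second set was shallower, with a median of 1795.5 against 3516 UMIs. Barcode number 2 held 4 cells of the first set and 13 of the second, and in the mural-like class it had the lowest Vim (345 CPM, against 922, 1115 and 1738 in numbers 1, 3 and 4) and the lowest Des.

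**Figure D5:**
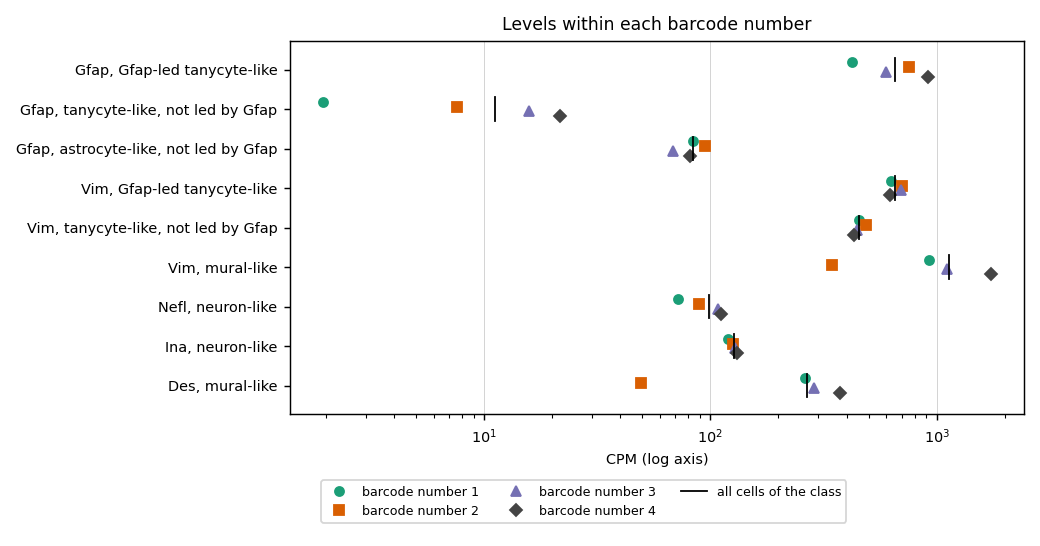
Level (CPM, log axis) of selected genes within barcode numbers 1 to 4, with a line at the level of all cells of the class. Vim in tanycyte-like cells and Ina in neuron-like cells stay close to that line, while Gfap in tanycyte-like cells not led by Gfap runs from 1.96 to 21.6 CPM and Des in mural-like cells from 49.2 to 375 CPM.

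Genes that work with filaments were counted at the same limit of 1 log2 unit in both directions. Over all 13953 genes, 8.99% were this much lower in all tanycyte-like cells, 7.62% in the Gfap-led tanycyte-like cells, 12.7% in all astrocyte-like cells, 12.2% in neuron-like cells and 12.2% in vascular cells, and the shares that were higher are given above. Of 6 counted genes for the linkers and turnover of filaments, Plec, the plectin gene, lay 1.15 log2 units higher in the Gfap-led tanycyte-like cells (51.6 against 17.7 CPM), and Macf1 1.76 log2 units higher in all astrocyte-like cells (342 against 93.7 CPM). In vascular cells none was higher, and Dst (38.3 against 111.5 CPM) and Trim2 (19.96 against 87.4 CPM) were lower. None passed the limit in all tanycyte-like or in neuron-like cells.

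Of 8 counted genes of reactive glia, the hyaluronan receptor gene Cd44 (55.0 against 4.74 CPM) and S1pr3 (36.4 against 8.94 CPM) were at least 1 log2 unit higher in all tanycyte-like cells and Serpina3n, Cp and Gap43 as much lower. In the Gfap-led tanycyte-like cells Cd44, S1pr3 and C4b (65.6 against 17.3 CPM) were higher and Gap43 lower, with a median over the 8 genes of 0.46 log2 units against -0.13 over all 13953 genes. In astrocyte-like cells C4b was higher and 6 of the 8 were lower, with a median of -1.19 against -0.23. In neuron-like cells 2 (Serpina3n and Gap43) were higher and 6 lower, with a median of -1.36 against -0.06. The highest median of the list, 1.34 against -0.19, was in vascular cells, where Ifitm3 (1453 against 118 CPM), Hspb1, Cp and S1pr3 were higher and Serpina3n and Gap43 lower.

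The list of 12 axonal cytoskeleton genes had 8 that were higher in neuron-like cells, where 9.48% of all genes were, from Map1b at 1.20 log2 units to Gap43 at 4.61, with a median of 2.13 against -0.06 over all genes, and none lower. In all tanycyte-like cells none was higher and 8 were lower, and in astrocyte-like cells none was higher and 11 were lower. In vascular cells 11 were lower, and Sncg, which encodes γ-synuclein, was the 1 that was higher, at 98.2 against 16.4 CPM.

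Over 25 clusters, the genes whose log2 level was most like that of each member were named by Pearson's r among 11002 genes with at least 200 UMIs. For Vim they were S100a11 (0.883), Anxa2 (0.869) and 2900026A02Rik (0.868), and for Nes they were Synm, a filament gene itself (0.850), Tead2 (0.833) and Gm10093 (0.831). For Gfap they were Gm20515 (0.826), Phyhd1 (0.801) and Slc25a18 (0.773). Fstl5 led for Nefl (0.939) and Nefm (0.957), Golga7b for Nefh (0.969) and Gm44644 for Ina (0.961). Between members, r was 0.818 for Vim and Nes, 0.085 for Gfap and Vim, 0.865 for Nefl and Nefm and 0.880 for Nefh and Ina. The clusters come from the same libraries and differ in depth and size, so these values are a description of the pattern and carry no p.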

How the data were processed

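Droplet-based RNA sequencing was made from sorted live cells of the median eminence. The authors deposited 1 table of raw UMI counts for 5982 cells and 27998 genes (29288898 UMIs), made with Cell Ranger 2.0 on GRCm38 per the submitters' processing notes. The annotation release and the use of strand in counting are not given in the sources used here. All columns were used (0 left out). The 9 genes, the marker lists and the gene lists were chosen with earlier results of these data known. Genes were named by rule: the 9 members, genes of the fixed lists, the 5 leading genes of a described cluster, and the 3 genes most correlated with each member of at least 200 UMIs.

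Symbols, positions and overlaps were taken from GENCODE vM21. Counts were scaled per cell and clustered with scanpy 1.11.5 (2000 variable genes without the 9 members, 30 components, 15 neighbours, Leiden resolution 1). A cluster took the name of the list that scored highest when at least 3 of its markers were at least 4-fold up. That score also had to be at least 0.3 and at least 1.5 times the next. A name could also be set by hand from the leading gene of a cluster. The Ccn3-led cluster of 41 cells met the limits for the pars tuberalis list (0.426 against 0.109, 3 markers) but was left unnamed. One tanycyte marker is not reported here. Clusters of 60 cells in all stayed unnamed and 3 cells rich in haemoglobin were set apart. The Gfap-led clusters were planned as clusters without a name, but they took tanycyte and astrocyte names here and were kept apart under those. The neuron groups, the transmitter split with and without the Pomc-led group, the parts of the mural-like and pars tuberalis-like classes and the 20 CPM limit on Nefl were added after the data were seen. No filter on cells was used, and the 50 cells (0.836%) called as doublets by Scrublet were kept. Thinning drew 2000 UMIs per cell and left out 304 shallower cells. Exact Poisson, Clopper-Pearson and conditional binomial intervals (scipy 1.17.1) are at 95%. Differences over all genes used 10 CPM as pseudocount and genes with at least 50 UMIs. The scripts were tested on simulated data.

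With 1 pooled biological sample per condition and barcode numbers not tied to a library, no test was made.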

Additional observations from a re-analysis of the deposited data

How the results depend on the processing

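Clustering with the 9 genes kept, Leiden resolutions of 0.5 and 2, doublets left out, a filter on cells, thinning to 2000 UMIs and leaving out each barcode number were tried. Of 50 alternative values for the 5 main results, 46 stayed within the counting interval of the reported value. The part of neurofilament-type UMIs in neuron-like cells was 88.4% at resolution 2, where 56 pars tuberalis-like cells took the neuron name, and 69.0% after thinning, which gives deep neurons and shallow cells the same weight. With a barcode number left out, the log2 ratio of Gfap in tanycyte-like to astrocyte-like cells lay from -0.03 to 0.30, that of Vim from 4.37 to 4.68 and that of Nes from 4.95 to 5.91. The neurofilament part lay from 85.1% to 87.9% and the Des part from 84.2% to 89.6%.

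For levels of single genes, shares and lists, 147 alternative values stayed within the interval (or within 1.5 times a count) and 33 did not. Gfap in the Gfap-led tanycyte-like cells was at 793 CPM at resolution 2 and from 560.1 to 779 CPM with a barcode number left out, and Vim in mural-like cells from 843 to 1302 CPM. With a pseudocount of 1 CPM the genes at least 1 log2 unit higher numbered 1186 in place of 577 in tanycyte-like cells, 965 in place of 462 in the Gfap-led tanycyte-like cells, 1128 in place of 736 in astrocyte-like cells and 2088 in place of 1323 in neuron-like cells. Over neuron groups formed at resolutions of 0.5 and 2, chosen after the data were seen, the highest Nefl was up to 370.4 CPM and the highest Ina up to 233 CPM.

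Depth limits the rare genes: Prph had 35 UMIs, and none was left in neuron-like cells after thinning. No paired analysis was possible because the barcode numbers carry no sample and no comparison between samples was made. The intervals hold no spread between mice.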

Other observations

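Other filament genes had their own classes, described here from a list of 16 genes with no test. Ependymocyte-like cells were highest of the 15 named classes for Synm, the synemin gene, at 178 CPM (endothelial-like cells next at 135 CPM), and for the keratin genes Krt8 (105 CPM), Krt18 (93.2 CPM) and Krt15 (52.7 CPM), with pars tuberalis-like cells next for Krt8 (49.7 CPM) and Krt18 (47.7 CPM). An unnamed cluster of 41 cells led by Ccn3, Spon2 and Cyp2f2 had 348 CPM of Krt18 (269 to 442), 153 CPM of Krt7 (102 to 219) and 121 CPM of Vim (76.8 to 182). Bfsp2, a filament gene known from the eye lens, reached 507 CPM among the diffOPC-like cells, with 98.4 CPM among the MOL-like cells. Lmna, the lamin A and C gene of the nuclear envelope, reached 458 CPM among the mural-like cells, with the VLMC-like cells next at 267 CPM. Of the 13 genes of this list with at least 50 UMIs, Synm was at least 1 log2 unit higher in all tanycyte-like cells (79.0 against 22.1 CPM) and Lmna in vascular cells (277 against 67.3 CPM), and none was in astrocyte-like or neuron-like cells.

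Small clusters outside the main glia also held filament genes. The unnamed cluster of 19 cells led by Ccl5 and Nkg7, genes of cytotoxic lymphocytes, had 329 CPM of Vim (198 to 514, 19 UMIs) and no UMI of the other 8 genes. The microglia-like cluster of 48 cells led by Ccl4, Junb and Ccl3 had 50.6 CPM of Gfap (23.1 to 96.1) on 9 UMIs, against 6.77 CPM (2.92 to 13.3) on 8 UMIs in the other microglia-like cluster of 357 cells. Among neuron-like clusters, the one led by Agrp and Npy (65 cells) had 41.2 CPM of Vim (30.2 to 54.7) and the one led by Sst and Gal (367 cells) 19.4 CPM (15.7 to 23.7). This was not particular to Agrp and Npy neurons. Over the 14 neuron groups, Vim was highest in the Tac1-led group, at 54.96 CPM (34.45 to 83.2, 22 UMIs). The Npy- and Agrp-led group (40.3 CPM, 29.15 to 54.3) and the Cck-led group (31.0 CPM, 12.5 to 63.9, 7 UMIs) came next, with overlapping intervals.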
